A study of Mus musculus with 12 samples.

Results

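The small leucine-rich proteoglycans are secreted matrix proteins built around a short core of leucine-rich repeats. The 10 genes described here were chosen by name as members of this family: decorin (Dcn), biglycan (Bgn), asporin (Aspn), fibromodulin (Fmod), lumican (Lum), Prelp, keratocan (Kera), osteomodulin (Omd), osteoglycin (Ogn) and podocan (Podn). Each was read by 1 feature of the Affymetrix Mouse Gene 1.0 ST array that carried its symbol alone. They are 10 of the 28853 features on the array, and all 10 were among the 17450 features tested, those with 1 gene symbol and a mean log2 signal of at least 5.3 over all arrays.

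Gene expression was measured in RNA of the whole ankle joint of 12 mice, 1 mouse per array and 3 mice per group, labelled as C57BL/6. The groups were arthritic Mmp8-/- mice, Mmp8-/- control mice without arthritis, arthritic Mmp8+/+ mice and Mmp8+/+ control mice without arthritis. Mmp8 encodes collagenase-2, a collagen-cleaving protease made mainly by neutrophils, and Mmp8-/- mice lack it in every cell. The mutant line came from a stock of mixed strain that was backcrossed to C57BL/6 for 12 generations, and both genotypes were bred from heterozygous parents. Arthritic mice received 150 µl of pooled serum of K/BxN mice, whose autoantibodies cause joint inflammation, into the peritoneum on day 0 and day 2 at an age of 6 to 8 weeks, and their ankles were taken on day 7. The sources used here give no vehicle or serum from other mice for the controls. The comparisons ask how joint expression of the family differed with arthritis in each genotype and between the genotypes.

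Members of the family bind to collagen fibrils and control how thick the fibrils grow and how they are spaced. Most carry chains of chondroitin, dermatan or keratan sulfate. Several also hold growth factors of the TGF-beta family in the matrix, and soluble biglycan can act on toll-like receptors. In and around joints they are made by fibroblasts, tendon and ligament cells, chondrocytes and bone cells, and they are grouped by sequence into class I (Dcn, Bgn, Aspn), class II (Fmod, Lum, Prelp, Kera, Omd), class III (Ogn) and further classes that include Podn.

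Some arrays stood apart from their labels. Mmp8 itself had log2 signals of 4.64 to 5.54 in arthritic Mmp8-/- mice, 4.82, 10.65 and 5.05 in Mmp8-/- controls 1, 2 and 3, and 10.21 to 11.16 on the 6 Mmp8+/+ arrays, so the library labelled Mmp8-/- control 2 had the Mmp8 signal of an Mmp8+/+ joint. Mice on the arrays were stated to be male, but Xist, which marks an inactive X chromosome, read 10.92 on Mmp8-/- control 1 and 10.42 on Mmp8+/+ control 1, against 4.66 to 5.41 on the other arrays. Eif2s3y, a Y chromosome gene, read 4.16 and 4.02 on these 2 arrays, against 7.94 to 9.27 on the others. Both thus had the signals of a female mouse. Both are controls, so sex is partly mixed with arthritis in the comparisons. Where leaving out any of these 3 arrays ended the call of a member, this is said below or in the section on processing. For some values that were not called, the value without these arrays is also given. Array medians were 6.74 to 6.82 on the log2 scale.

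Arthritis was accompanied by changes in both directions within the family. In Mmp8-/- mice, Omd, Ogn and Podn fell and no member rose. In Mmp8+/+ mice, Bgn and Lum rose and Omd fell. Omd was called in both genotypes, with a signal 5.89-fold lower in arthritic than in control Mmp8-/- mice and 7.41-fold lower in arthritic than in control Mmp8+/+ mice. Some arthritic Omd signals lay at or near 5.3, the minimum set for a feature's mean, which is not a floor for single signals. RMA can flatten differences at low signal, so these folds may understate the decrease. Averaged over the genotypes, the members called were Bgn and Lum, which were higher with arthritis, and Dcn, Omd, Ogn, Prelp and Podn, which were lower. Fmod, Aspn and Kera were not called in any of these comparisons.

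These calls were made with limma at a false discovery rate (FDR) of 5% after Benjamini-Hochberg adjustment over all tested features, and every adjusted p below is of this kind and two-sided. In Mmp8-/- mice 3 of 10 members were called, against 22.6% of all tested features. The 0 members called higher stood against 8.30% of features, and the 3 called lower against 14.3%. In Mmp8+/+ mice 3 of 10 members were called, against 19.6% of features, with 2 higher (7.47% of features) and 1 lower (12.1%). In the averaged effect 7 of 10 were called, against 43.0% of features, with 2 higher (19.8%) and 5 lower (23.2%). Omd was 1 of 10 members called lower in both genotypes, against 9.16% of features. The median log2 fold change over the 10 members was -0.54 in Mmp8-/- mice and -0.0046 in Mmp8+/+ mice, beside -0.015 and 0.0061 over all tested features. In whole joint RNA, fewer cells of a type and less RNA per cell cannot be told apart, and this holds for every value below.

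Counting members whose arthritic and control signals did not overlap gave a similar division. In Mmp8-/- mice the arthritic values of 4 members, Dcn, Omd, Ogn and Podn, were all below the control values (21.5% of features), and those of 0 members were all above (18.4%). In Mmp8+/+ mice those of Dcn and Omd were all below (22.4%) and those of Bgn, Fmod and Lum all above (18.6%). When the 6 arthritic mice were set against the 6 control mice, Dcn and Omd were the 2 members without overlap, both lower (12.4% of features), and 0 members were wholly higher (7.51%).

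**Figure D1:**
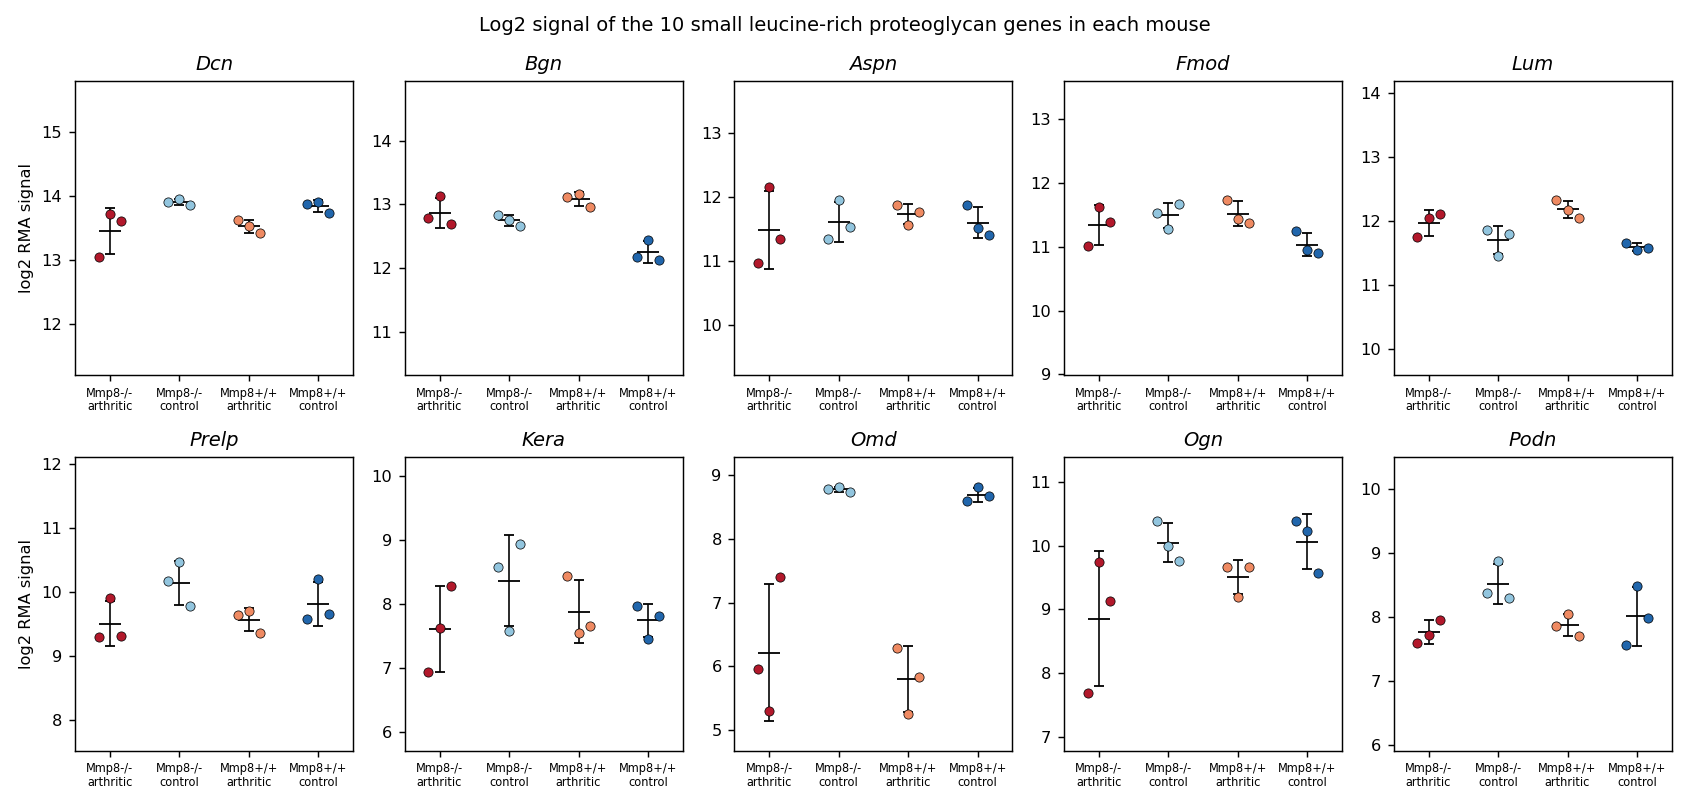
Log2 RMA signal (vertical axis) of each of the 10 members in each mouse, by group (horizontal axis), with horizontal bars for the group mean and whiskers for 1 SD; every panel spans the same number of log2 units. The 6 arthritic mice lie below the 6 control mice for Omd and Dcn, and the Mmp8+/+ arthritic mice lie above their controls for Bgn, Fmod and Lum.

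**Figure D2:**
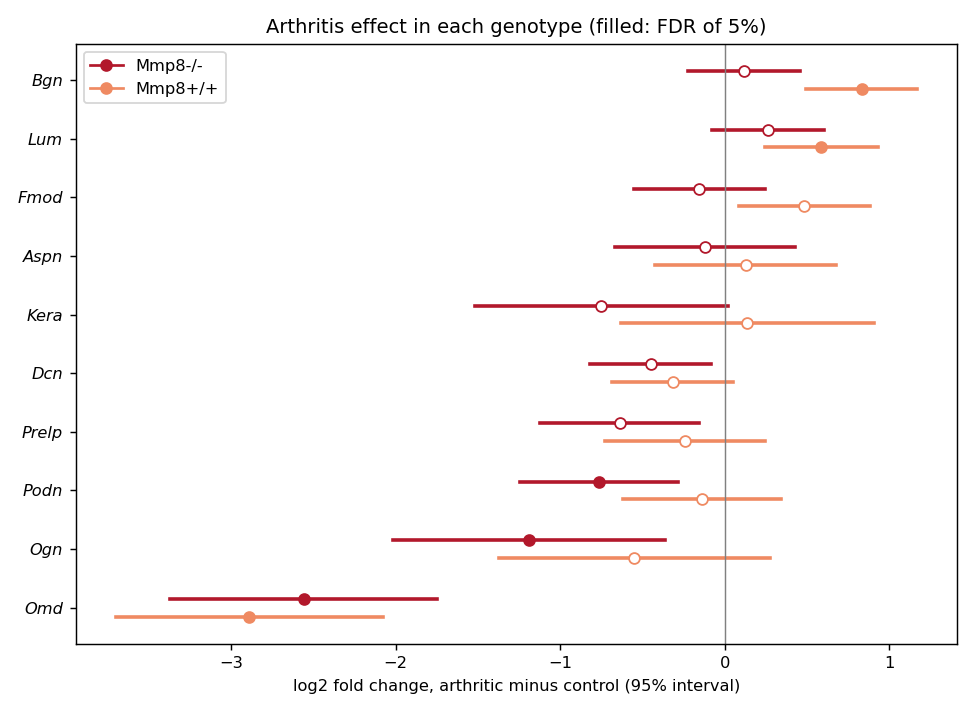
Log2 fold change, arthritic minus control (horizontal axis), for each member, with its 95% interval, in Mmp8-/- mice (dark red) and Mmp8+/+ mice (orange); filled points passed an FDR of 5%. Omd lies at -2.56 and -2.89, apart from the other members, and Bgn and Lum are filled in Mmp8+/+ mice, whereas Ogn and Podn are filled in Mmp8-/- mice.

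Omd encodes osteomodulin, also called osteoadherin, a keratan sulfate proteoglycan of mineralised bone matrix that binds cells through integrins. Its log2 signals were 5.95, 5.31 and 7.39 in arthritic Mmp8-/- mice, against 8.78, 8.82 and 8.73 in Mmp8-/- controls. In arthritic Mmp8+/+ mice they were 6.29, 5.26 and 5.84, against 8.59, 8.81 and 8.66 in Mmp8+/+ controls. The control mice of both genotypes kept close together, and every arthritic mouse was below every control mouse, with the arthritic Mmp8-/- mice the most spread (SD 1.07, against 0.04 in their controls, n = 3 each). The log2 fold change was -2.56 (SE 0.38, adjusted p = 0.000351) in Mmp8-/- mice and -2.89 (SE 0.38, adjusted p = 0.000121) in Mmp8+/+ mice. Counted from the largest decrease, Omd ranked 51 among the 17450 tested features in Mmp8-/- mice and 30 in Mmp8+/+ mice. Without the 2 arrays with Xist signal and the library labelled Mmp8-/- control 2, the fold changes were -2.52 (adjusted p = 0.0366) and -2.94 (adjusted p = 0.00145).

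Markers of bone cells moved with Omd. Of 9 osteoblast and osteocyte markers 7 were tested. With arthritis 5 were lower and 0 higher in Mmp8-/- mice, and 6 were lower and 0 higher in Mmp8+/+ mice. Over all tested features, 14.3% were called lower in Mmp8-/- mice and 12.1% in Mmp8+/+ mice. The mean signal of the list was 7.55 to 8.48 in arthritic Mmp8-/- mice, against 9.18 to 9.65 in Mmp8-/- controls, and 7.61 to 7.82 in arthritic Mmp8+/+ mice, against 8.78 to 9.39 in Mmp8+/+ controls. Phex, an endopeptidase of osteocytes that takes part in phosphate control, had a log2 fold change of -3.25 in Mmp8-/- and -3.20 in Mmp8+/+ mice. For Dmp1, an acidic matrix protein of osteocytes, it was -1.60 in Mmp8-/- and -2.42 in Mmp8+/+ mice. The arthritic Mmp8-/- mouse with the highest Omd signal, mouse 3 at 7.39, also had the highest Phex (8.84) and Dmp1 (8.46) signals of its group. This mouse was the highest of its group for 4 of 10 members, Omd among them. Dmp1 and Omd ranked the arthritic mice alike within each genotype, but Phex did not. Among arthritic Mmp8-/- mice, Phex was lowest in mouse 1 (6.39) and Omd in mouse 2 (5.31). Among arthritic Mmp8+/+ mice, Phex was highest in mouse 3 (7.37) and Omd in mouse 1 (6.29). Ibsp, bone sialoprotein, was the tested marker not called in either genotype (-0.32 in Mmp8-/- and -0.31 in Mmp8+/+ mice). The part of these cells in the fall of Omd was not tested.

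**Figure D3:**
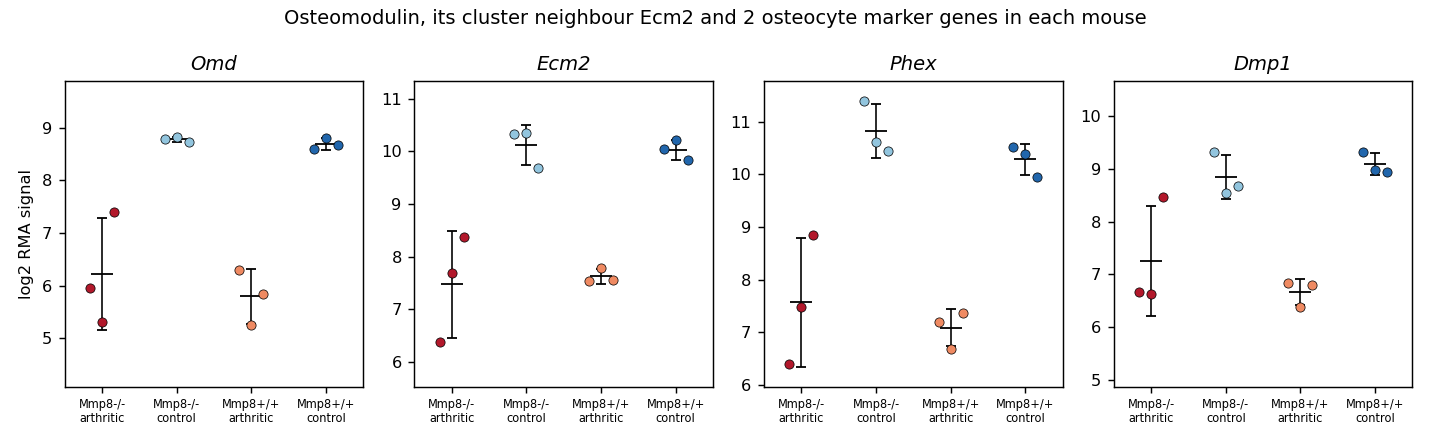
Log2 RMA signal (vertical axis) of Omd, of Ecm2, which lies beside the family cluster on chromosome 13, and of the osteocyte markers Phex and Dmp1 in each mouse, by group (horizontal axis), with the mean and 1 SD. Arthritic Mmp8-/- mouse 3 is the highest of its group in all 4 panels, with Omd at 7.39 and Phex at 8.84.

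Neighbouring genes of the chromosome 13 cluster differed in how they varied with arthritis, and Bgn rose most of the members in Mmp8+/+ mice. The promoter sequences of that cluster and of Bgn are shown for this reason. Each is the 250 bases before the annotated start, on the plus strand, from RefSeq on GRCm38.p6. Capitals mark a TATA box (TATAAA), an E-box (CANNTG) or a GC box (GGGCGG) on either strand, and where matches overlap the capitals run together. The windows are chr13:49504560-49504809 for Ecm2, chr13:49544193-49544442 for Aspn, chr13:49582212-49582461 for Omd, chr13:49607765-49608014 for Ogn and chrX:73483351-73483600 for Bgn.
Ecm2: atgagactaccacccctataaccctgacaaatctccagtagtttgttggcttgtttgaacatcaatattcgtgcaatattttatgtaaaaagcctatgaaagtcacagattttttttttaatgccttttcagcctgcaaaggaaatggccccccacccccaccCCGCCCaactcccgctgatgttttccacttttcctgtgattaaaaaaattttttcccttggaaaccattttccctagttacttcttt
Aspn: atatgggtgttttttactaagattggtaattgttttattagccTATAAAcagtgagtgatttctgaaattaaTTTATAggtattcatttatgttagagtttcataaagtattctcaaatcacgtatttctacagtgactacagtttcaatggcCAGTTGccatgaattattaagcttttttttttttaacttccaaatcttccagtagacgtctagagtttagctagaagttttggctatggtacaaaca
Omd: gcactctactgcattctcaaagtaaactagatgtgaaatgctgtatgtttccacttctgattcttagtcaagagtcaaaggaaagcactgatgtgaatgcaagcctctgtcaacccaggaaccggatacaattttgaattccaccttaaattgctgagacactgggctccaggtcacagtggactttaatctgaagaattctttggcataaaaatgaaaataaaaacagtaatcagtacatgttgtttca
Ogn: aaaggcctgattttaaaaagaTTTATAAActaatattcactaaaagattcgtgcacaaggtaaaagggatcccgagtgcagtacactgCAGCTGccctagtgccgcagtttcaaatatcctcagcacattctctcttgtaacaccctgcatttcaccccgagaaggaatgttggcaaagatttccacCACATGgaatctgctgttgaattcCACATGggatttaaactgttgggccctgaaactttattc
Bgn: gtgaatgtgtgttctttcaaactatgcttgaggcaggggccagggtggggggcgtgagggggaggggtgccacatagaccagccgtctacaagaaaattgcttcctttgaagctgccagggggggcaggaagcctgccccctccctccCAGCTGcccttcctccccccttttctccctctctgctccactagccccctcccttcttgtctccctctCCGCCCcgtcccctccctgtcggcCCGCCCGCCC

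The window of Omd held 0 matches to these motifs and had a GC content of 38.4%. The window of Ogn held 2 TATA matches that overlap and 3 E-boxes (GC content 42%), that of Aspn 2 TATA matches and 1 E-box (30%), and that of Ecm2 1 GC box (40%). The window of Bgn, on the X chromosome, was richer in G and C (64.4%) and held 1 E-box and 3 GC boxes. Over 32851 RefSeq windows of the same length, TATAAA was found in 12.4%, CANNTG in 66.2% and GGGCGG in 32.7%, and the median GC content was 52.4%. Windows were matched for 8 of the 10 members. The matches are descriptions of the letters and not of bound sites.

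On chromosome 13 the RefSeq annotation gives the order Ecm2, Aspn, Omd and Ogn, with 0 other protein-coding starts between neighbours. Ecm2, a leucine-rich repeat matrix protein that is not one of the 10 members, lies at the Aspn end. Ecm2 signals were 6.38, 7.68 and 8.37 in arthritic Mmp8-/- mice, against 10.32, 10.35 and 9.69 in Mmp8-/- controls, and 7.54, 7.79 and 7.56 in arthritic Mmp8+/+ mice, against 10.04, 10.21 and 9.83 in Mmp8+/+ controls. It fell in both genotypes, with log2 fold changes of -2.64 in Mmp8-/- mice (adjusted p = 0.000155) and -2.40 in Mmp8+/+ mice (adjusted p = 0.000325). Aspn, which lies between Ecm2 and Omd, was not called in either genotype.

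Ogn encodes osteoglycin, or mimecan, a proteoglycan first isolated from bone and present in many connective tissues. Its log2 signals were 7.69, 9.74 and 9.14 in arthritic Mmp8-/- mice, against 10.38, 9.999 and 9.76 in Mmp8-/- controls. Arthritic Mmp8+/+ mice read 9.67, 9.20 and 9.66, against 10.38, 10.23 and 9.57 in Mmp8+/+ controls. All 3 arthritic Mmp8-/- mice were below their controls, mouse 1 by the widest margin, whereas the Mmp8+/+ groups overlapped. Ogn fell in Mmp8-/- mice, by 1.19 on the log2 scale (SE 0.39, adjusted p = 0.0395), and its value in Mmp8+/+ mice was -0.55 (SE 0.39, adjusted p = 0.325). The Mmp8-/- call ended without arthritic mouse 1, where the log2 fold change was -0.61 (adjusted p = 0.159), without control 1 (-1.02, adjusted p = 0.145) and without the library labelled control 2 (-1.21, adjusted p = 0.0817), and without all 3 arrays that stood apart the value was -0.91 (adjusted p = 0.472). The averaged effect was called (-0.87, SE 0.27, adjusted p = 0.0200), but not without Mmp8-/- control 1 (-0.79, adjusted p = 0.0514). Nor was it called without the 2 arrays with Xist signal (-0.71, adjusted p = 0.103), and without all 3 arrays that stood apart it was -0.65.

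Aspn encodes asporin, a class I member without glycosaminoglycan chains that binds collagen and TGF-beta. Its signals were 10.97, 12.16 and 11.35 in arthritic Mmp8-/- mice, against 11.34, 11.95 and 11.54 in Mmp8-/- controls, and 11.87, 11.56 and 11.76 in arthritic Mmp8+/+ mice, against 11.88, 11.52 and 11.41 in Mmp8+/+ controls. The groups overlapped in both genotypes. The averaged log2 fold change was 0.0041, with a 95% interval of -0.38 to 0.39, which still holds changes of that size in either direction. The within-array difference of Omd minus Aspn was -6.85 to -3.95 in arthritic Mmp8-/- mice, against -3.14 to -2.56 in Mmp8-/- controls, and -6.30 to -5.58 in arthritic Mmp8+/+ mice, against -3.30 to -2.72 in Mmp8+/+ controls. Such a difference moves with the probes of each gene, so only its shift between groups is read, and it is given with no test.

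**Figure D4:**
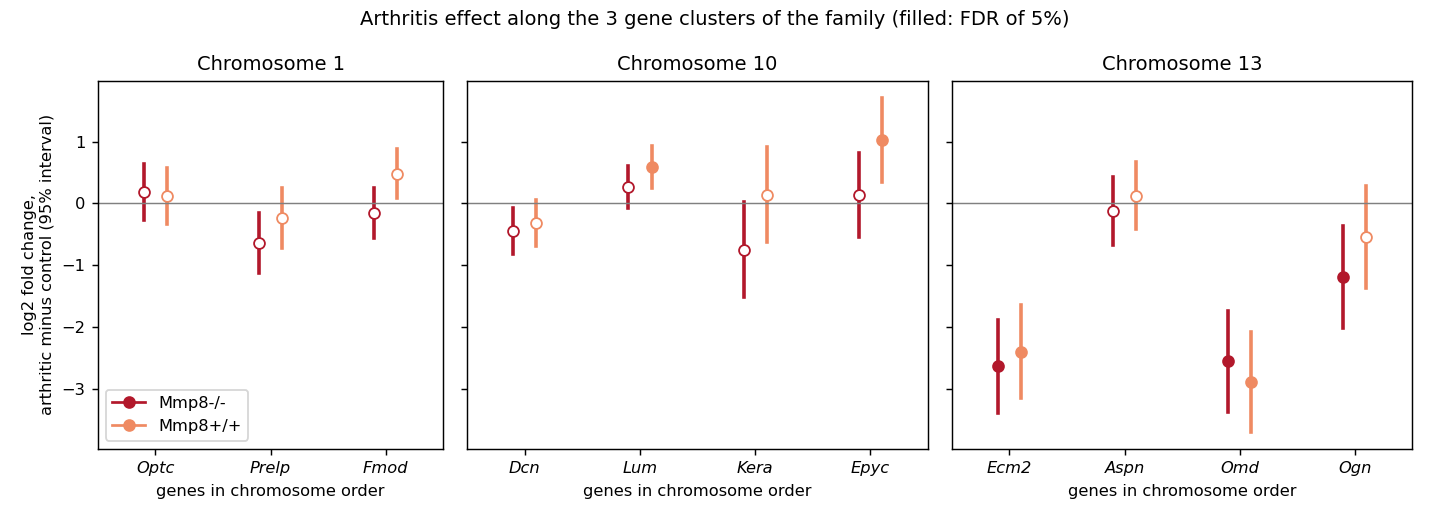
Log2 fold change, arthritic minus control, with its 95% interval (vertical axis) for the genes of the clusters on chromosomes 1, 10 and 13 in chromosome order (horizontal axis), in Mmp8-/- mice (dark red) and Mmp8+/+ mice (orange); filled points passed an FDR of 5%. Ecm2 and Omd lie at -2.64 and -2.56 in Mmp8-/- mice with Aspn, between them, at -0.12.

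Bgn encodes biglycan, a class I proteoglycan with chondroitin or dermatan sulfate chains that is abundant in bone, tendon and cartilage. Its signals were 12.78, 13.13 and 12.69 in arthritic Mmp8-/- mice, against 12.84, 12.75 and 12.67 in Mmp8-/- controls. In arthritic Mmp8+/+ mice they were 13.11, 13.17 and 12.96, against 12.17, 12.45 and 12.13 in Mmp8+/+ controls. The Mmp8+/+ groups were wholly apart and the Mmp8-/- groups overlapped, and the Mmp8-/- controls lay above the Mmp8+/+ controls. Bgn rose in Mmp8+/+ mice by 0.83 on the log2 scale, or 1.78-fold (SE 0.16, adjusted p = 0.00224). The value in Mmp8-/- mice was 0.12 (SE 0.16, adjusted p = 0.605), with a 95% interval of -0.22 to 0.46. The Mmp8+/+ rise was also called without the 3 arrays that stood apart (0.79, adjusted p = 0.0287), where the averaged effect was not (0.50, adjusted p = 0.0621, against 0.47 and adjusted p = 0.00424 with all arrays).

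Dcn encodes decorin, the class I proteoglycan that coats type I collagen and binds TGF-beta, and had the highest mean signal of the 10 features. Its signals were 13.04, 13.72 and 13.60 in arthritic Mmp8-/- mice, against 13.91, 13.95 and 13.86 in Mmp8-/- controls, and 13.62, 13.52 and 13.42 in arthritic Mmp8+/+ mice, against 13.87, 13.91 and 13.73 in Mmp8+/+ controls. No arthritic value reached a control value. The averaged effect was called (-0.38, SE 0.12, adjusted p = 0.0211), but the effects of -0.45 in Mmp8-/- mice (adjusted p = 0.0714) and -0.32 in Mmp8+/+ mice (adjusted p = 0.205) were not. The averaged call ended without the 2 arrays with Xist signal (-0.37, adjusted p = 0.0789), and the Mmp8-/- effect passed without arthritic mouse 2 (-0.58, adjusted p = 0.0351) and with an intensity trend and robust moderation (-0.45, adjusted p = 0.0370). The within-array difference of Bgn minus Dcn was -0.90 to -0.26 in arthritic Mmp8-/- mice, against -1.20 to -1.08 in Mmp8-/- controls, and -0.51 to -0.35 in arthritic Mmp8+/+ mice, against -1.70 to -1.46 in Mmp8+/+ controls.

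Lum encodes lumican, a class II keratan sulfate proteoglycan of cornea, tendon and skin that binds fibrillar collagen. Its signals were 11.74, 12.05 and 12.11 in arthritic Mmp8-/- mice, against 11.86, 11.46 and 11.80 in Mmp8-/- controls. They were 12.32, 12.17 and 12.05 in arthritic Mmp8+/+ mice, against 11.66, 11.54 and 11.58 in Mmp8+/+ controls. The groups were apart in Mmp8+/+ mice and overlapped in Mmp8-/- mice. Lum rose in Mmp8+/+ mice by 0.59 on the log2 scale (SE 0.16, adjusted p = 0.0194), and its value in Mmp8-/- mice was 0.26 (SE 0.16, adjusted p = 0.236). The Mmp8+/+ call ended without arthritic mouse 1 (0.52, adjusted p = 0.0857), arthritic mouse 2 (0.59, adjusted p = 0.0521) or control 2 (0.56, adjusted p = 0.0600) of that genotype, and without the 2 arrays with Xist signal (0.62, adjusted p = 0.0550). The averaged effect was 0.42 (adjusted p = 0.00868) with all arrays and 0.39 (adjusted p = 0.110) without the 3 arrays that stood apart.

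Dcn and Lum are neighbours on chromosome 10, followed by Kera and Epyc, with 0 other protein-coding starts between them. The within-array difference of Lum minus Dcn was -1.67 to -1.30 in arthritic Mmp8-/- mice, against -2.49 to -2.05 in Mmp8-/- controls, and -1.37 to -1.30 in arthritic Mmp8+/+ mice, against -2.36 to -2.15 in Mmp8+/+ controls. The arthritic and control ranges were thus apart in both genotypes. Kera, keratocan, is known as a keratan sulfate proteoglycan of the cornea. It had signals of 6.94, 7.63 and 8.28 in arthritic Mmp8-/- mice, against 8.58, 7.57 and 8.94 in Mmp8-/- controls, and 8.44, 7.54 and 7.66 in arthritic Mmp8+/+ mice, against 7.96, 7.46 and 7.81 in Mmp8+/+ controls. Its groups overlapped, and the log2 fold changes of -0.75 in Mmp8-/- mice (adjusted p = 0.139) and 0.14 in Mmp8+/+ mice (adjusted p = 0.813) were not called. Kera in Mmp8-/- mice passed without arthritic mouse 3 (-1.08, adjusted p = 0.0484) and without the library labelled control 2 (-1.15, adjusted p = 0.0411). Without arthritic mouse 1 the Kera value was -0.41 (adjusted p = 0.479), and without the 3 arrays that stood apart it was -1.32.

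On chromosome 1 the annotated neighbours are Optc, Prelp and Fmod. Fmod encodes fibromodulin, a keratan sulfate proteoglycan of tendon and cartilage that shares a collagen-binding region with lumican. Fmod signals were 11.01, 11.62 and 11.38 in arthritic Mmp8-/- mice, against 11.53, 11.28 and 11.67 in Mmp8-/- controls, and 11.74, 11.44 and 11.37 in arthritic Mmp8+/+ mice, against 11.24, 10.95 and 10.90 in Mmp8+/+ controls. The Mmp8+/+ groups were apart, with arthritis higher, but the log2 fold change of 0.48 (SE 0.19, adjusted p = 0.0819) did not pass, except without arthritic Mmp8-/- mouse 1, which enters the common variance (adjusted p = 0.0470). In Mmp8-/- mice the value was -0.16 (SE 0.19, adjusted p = 0.557). Prelp encodes a protein of cartilage and basement membranes whose arginine- and proline-rich end binds heparan sulfate. Prelp signals were 9.29, 9.91 and 9.31 in arthritic Mmp8-/- mice, against 10.18, 10.46 and 9.79 in Mmp8-/- controls, and 9.64, 9.71 and 9.36 in arthritic Mmp8+/+ mice, against 9.57, 10.20 and 9.65 in Mmp8+/+ controls. The groups overlapped in both genotypes, and the averaged effect was called (-0.44, SE 0.16, adjusted p = 0.0384), a call that 14 of 22 alternatives did not make. It ended without any 1 of 7 arrays, which were arthritic mice 1 and 3 and controls 1 and 2 of Mmp8-/- mice and arthritic mice 1 and 3 and control 2 of Mmp8+/+ mice, with adjusted p of 0.0564 to 0.100. The averaged effect was -0.49 (adjusted p = 0.0665) without the 2 arrays with Xist signal and -0.32 without all 3 arrays that stood apart. In Mmp8-/- mice alone the Prelp value was -0.64 (SE 0.23, adjusted p = 0.0551). It passed without arthritic mouse 2 (-0.84, adjusted p = 0.0222) or control 3 (-0.82, adjusted p = 0.0323). It also passed, through the variance, without Mmp8+/+ control 2 (adjusted p = 0.0424), and with an intensity trend and robust moderation (adjusted p = 0.0493). It was smaller without the library labelled control 2 (-0.48, adjusted p = 0.190) and without the 3 arrays that stood apart (-0.28).

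Podn encodes podocan, a family member found in the walls of blood vessels and in other connective tissue, on chromosome 4. Its signals were 7.59, 7.72 and 7.96 in arthritic Mmp8-/- mice, against 8.38, 8.87 and 8.30 in Mmp8-/- controls, and 7.85, 8.05 and 7.71 in arthritic Mmp8+/+ mice, against 7.56, 8.49 and 7.98 in Mmp8+/+ controls. The Mmp8-/- groups were apart and the Mmp8+/+ groups overlapped. Podn fell in Mmp8-/- mice, by 0.76 on the log2 scale (SE 0.22, adjusted p = 0.0267), against -0.14 (SE 0.22, adjusted p = 0.694) in Mmp8+/+ mice. The Mmp8-/- call ended without arthritic mouse 1 (-0.68, adjusted p = 0.0925), arthritic mouse 2 (-0.75, adjusted p = 0.0539), control 1 (-0.83, adjusted p = 0.0548) or the library labelled control 2 (-0.58, adjusted p = 0.109), and without the 3 arrays that stood apart the value was -0.54 (adjusted p = 0.382). The averaged effect of -0.45 (SE 0.16, adjusted p = 0.0337) was lost without any 1 of 6 arrays, which were arthritic mice 1 and 2 and the library labelled control 2 of Mmp8-/- mice and arthritic mice 1 and 3 and control 2 of Mmp8+/+ mice, with adjusted p of 0.0543 to 0.0885.

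No member differed between the genotypes at an FDR of 5%. Between arthritic Mmp8-/- and arthritic Mmp8+/+ mice, 0 of 10 members passed in limma, against 0.00573% of features, and 0 had an unadjusted p under 0.05 (2.89% of features). No member was without overlap in either direction (0 higher, against 2.85% of features, and 0 lower, against 3.42%). The log2 differences ran from -0.65 for Ogn (95% interval -1.48 to 0.17) to 0.42 for Omd (-0.39 to 1.23), and 9 of 10 were negative. Arthritic Mmp8-/- mouse 1 had the lowest value of its group for 8 of 10 members and the highest for 0. Without it the Ogn difference was -0.069, and without arthritic Mmp8-/- mouse 3 the Omd difference was -0.17. Members are read on the same arrays, so these signs are not independent of one another.

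Between Mmp8-/- and Mmp8+/+ controls, 0 of 10 members passed in limma (0% of features), and 3 had an unadjusted p under 0.05 (3.25% of features). These 3 were Bgn (log2 difference 0.50, SE 0.16), Fmod (0.46, SE 0.19) and Podn (0.51, SE 0.22), and after adjustment over all features each had an adjusted p of 0.9995. Bgn and Fmod were the 2 members with every Mmp8-/- control above every Mmp8+/+ control (4.10% of features), and 0 members had the reverse (3.78%). The library labelled Mmp8-/- control 2 is in this comparison, where its Bgn signal of 12.75 lay between those of the other Mmp8-/- controls, its Fmod signal of 11.28 below them and its Podn signal of 8.87 above them. Without it the differences were 0.50 for Bgn, 0.57 for Fmod and 0.33 for Podn. Without all 3 arrays that stood apart, which leaves 1 Mmp8-/- control, they were 0.38 for Bgn, 0.75 for Fmod and 0.067 for Podn.

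The arthritis effects in Mmp8-/- and Mmp8+/+ mice were also compared directly. The difference, Mmp8-/- minus Mmp8+/+, passed for 0 of 10 members in limma (0% of features), and 2 members had an unadjusted p under 0.05 (3.18% of features). For Bgn it was -0.71 (95% interval -1.19 to -0.23) and for Fmod -0.64 (-1.20 to -0.08), with adjusted p = 0.9999 for both. The calls of Bgn and Lum in Mmp8+/+ mice and of Ogn and Podn in Mmp8-/- mice were thus not shown to differ between the genotypes. For Lum the difference was -0.32 (-0.81 to 0.16), for Ogn -0.64 (-1.81 to 0.53) and for Podn -0.63 (-1.30 to 0.05), intervals that also hold sizeable differences. Without arthritic Mmp8-/- mouse 1 the Ogn difference was -0.056. Without the 3 arrays that stood apart the Podn difference was -0.18, that of Bgn -0.59 and that of Fmod -0.92, and 0 members passed. Both genotype comparisons and this one share mice with the arthritis comparisons.

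Beyond the 10 members, 7 of 8 other small leucine-rich repeat genes were tested. In Mmp8-/- mice 0 were higher and 2 lower with arthritis, and in Mmp8+/+ mice 2 were higher and 2 lower. Over all tested features, 8.30% were called higher and 14.3% lower in Mmp8-/- mice, and 7.47% and 12.1% in Mmp8+/+ mice. In the averaged effect these shares were 19.8% and 23.2%. The counts of every list below stand beside the same shares. Chad, chondroadherin, a cartilage protein that binds integrins and type II collagen, fell in both, with log2 fold changes of -3.40 in Mmp8-/- mice (adjusted p = 6.38e-05) and -3.31 in Mmp8+/+ mice (adjusted p = 7.35e-05). Ecm2 was the other gene that fell in both genotypes. Epyc, epiphycan, a growth plate member of class III, rose in Mmp8+/+ mice (1.03, adjusted p = 0.0354), and its value in Mmp8-/- mice was 0.14 (adjusted p = 0.774). In the averaged effect 3 of the 7 were higher and 2 lower, with a median of 0.32 against -0.0016 over all features.

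Genes of the collagens to which the family binds were called mostly higher in arthritic Mmp8+/+ mice and in the averaged effect, and in either direction in Mmp8-/- mice. Of 14 fibrillar and fibril-associated collagens, 2 rose and 2 fell in Mmp8-/- mice, 9 rose and 1 fell in Mmp8+/+ mice, and 8 were higher and 1 lower in the averaged effect (median 0.46). Col12a1, a fibril-associated collagen of tendon, rose by 1.76 in the averaged effect (SE 0.13, adjusted p = 2.08e-07), Col5a1, which helps to start fibrils, rose by 0.95, and Col11a2, of cartilage fibrils, fell by 0.90. When the arthritis effects of the genotypes were compared directly, 0 of the 14 collagens passed. Between arthritic Mmp8-/- and arthritic Mmp8+/+ mice 0 passed as well, so these counts do not show a difference between the genotypes. The mean signal of the list was 10.91 to 11.11 in arthritic Mmp8-/- mice, against 10.71 to 11.02 in Mmp8-/- controls. It was 11.03 to 11.13 in arthritic Mmp8+/+ mice, against 10.42 to 10.60 in Mmp8+/+ controls. No tested feature differed between the control genotypes at an FDR of 5%. The Mmp8-/- controls include the library labelled control 2. The list of collagens was chosen with earlier results known, as were the lists that follow.

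Enzymes that build the sugar chains of the proteoglycans, or sulfate their tyrosines, were called in both directions. Of 27 such genes, 5 rose and 4 fell in Mmp8-/- mice, and 6 rose and 4 fell in Mmp8+/+ mice. In the averaged effect 10 were higher and 4 lower (median 0.26). Over all tested features, 14.3% fell in Mmp8-/- mice, 12.1% fell in Mmp8+/+ mice and 23.2% were lower in the averaged effect. The counts of enzymes called lower were near or under these shares. Csgalnact1, which starts chondroitin chains, rose by 2.34 in the averaged effect (adjusted p = 4.63e-08), Chsy1, which lengthens them, rose by 1.08, and Chst15, a chondroitin sulfotransferase, fell by 1.12.

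Among 21 receptors and growth factors bound by family members, 2 rose and 6 fell in Mmp8-/- mice, 3 rose and 5 fell in Mmp8+/+ mice, and 3 were higher and 10 lower in the averaged effect (median -0.33). Cd14 and the toll-like receptor Tlr2 rose by 1.50 and 1.26 in the averaged effect, and the growth factor Bmp4 fell by 1.10. Tlr4, the other toll-like receptor on the list, was lower, with an averaged log2 fold change of -0.61 (adjusted p = 0.00652). The toll-like receptors, on which soluble biglycan can act, thus moved in both directions. Of 18 proteases and helpers that cut family members or their binding partners, 5 rose and 2 fell in Mmp8-/- mice, 8 rose and 1 fell in Mmp8+/+ mice, and 10 were higher and 2 lower in the averaged effect (median 0.45). Mmp3, stromelysin, rose by 5.07 (adjusted p = 1.02e-10), the aggrecanase Adamts4 rose by 1.40, and Pcolce2, an enhancer of procollagen processing, fell by 1.64.

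Markers of the cells that make family members were read on the same arrays. Of 8 fibroblast markers, 2 rose and 2 fell in Mmp8-/- mice, and 2 rose and 0 fell in Mmp8+/+ mice. The list mean was 10.39 to 10.69 in arthritic Mmp8-/- mice, against 10.45 to 10.67 in Mmp8-/- controls, and 10.58 to 10.72 in arthritic Mmp8+/+ mice, against 10.30 to 10.51 in Mmp8+/+ controls. Those Mmp8+/+ ranges were apart, but the median log2 fold change of the 8 markers in Mmp8+/+ mice was -0.045. In the averaged effect 2 of the 8 were higher and 4 lower. Of 5 tendon markers, 2 rose and 0 fell in Mmp8-/- mice, and 3 rose and 0 fell in Mmp8+/+ mice, with list means of 8.86 to 9.29 in arthritic Mmp8-/- mice, against 8.79 to 8.91 in Mmp8-/- controls, and 9.23 to 9.45 in arthritic Mmp8+/+ mice, against 8.64 to 8.87 in Mmp8+/+ controls. The part of these cells in the rises of Bgn and Lum was not tested.

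Other cell lists are given for the averaged effect, where 19.8% of all tested features were called higher and 23.2% lower. No list was tested against these shares. Of 9 chondrocyte markers, 4 were higher and 0 lower, and of 8 neutrophil markers, 2 were higher and 3 lower. Macrophage markers were higher for 2 and lower for 1 of 5, and 1 of 5 keratinocyte and 2 of 4 endothelial markers were lower. All 4 tested adipocyte markers, all 6 skeletal muscle markers and both tested erythroid markers were lower. The mean of the adipocyte list was 6.98 to 7.53 in arthritic Mmp8-/- mice, against 9.35 to 9.48 in Mmp8-/- controls, and 6.87 to 7.44 in arthritic Mmp8+/+ mice, against 8.66 to 9.64 in Mmp8+/+ controls. That of the muscle list was 9.74 to 10.76 in arthritic Mmp8-/- mice, against 11.34 to 11.67 in Mmp8-/- controls, and 9.44 to 11.38 in arthritic Mmp8+/+ mice, against 11.37 to 12.28 in Mmp8+/+ controls. Fat and muscle markers thus moved in the same direction as Dcn, Omd, Ogn, Prelp and Podn, and their part in those values was not tested.

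For each member, the tested gene with the most similar pattern over the 12 arrays was found from the root mean square difference after each gene's own mean was subtracted. For Omd it was Wif1, a secreted inhibitor of Wnt signalling, at 0.242 log2 units, where the Omd profile itself had a root mean square of 1.45. For Ogn it was Arhgap5 at 0.181 (own value 0.699), for Bgn Plpp5 at 0.129 (0.332), for Lum Adamts3 at 0.0742 (0.265) and for Dcn Ddx6 at 0.0752 (0.251). Likeness here covers the arthritis effect and the spread between mice together. For Prelp the nearest gene was Zbtb7a (0.0904), for Podn Slc25a35 (0.141), for Fmod Sgpl1 (0.129), for Aspn Papola (0.156) and for Kera Loxl4 (0.284). In no case was the nearest gene another member of the family.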

How the data were processed

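The authors deposited log2 signals, background corrected, quantile normalized and summarised per feature by RMA in Partek, per the labels and the study's methods, and RMA can flatten differences at low signal. The study dropped features below background, but the deposited table holds all 28853. Here 17450 features with 1 gene symbol in the array annotation and a mean log2 signal of at least 5.3 were tested, a minimum chosen to keep about as many features as the study. No column was left out. Of 21789 features with 1 symbol, 21698 had a RefSeq identifier.

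A model with 1 mean per group was fitted to all 12 arrays by limma (version 3.58.1, run in R 4.3.3; moderated variance, 8 residual degrees of freedom, no covariate) in 6 comparisons, with Benjamini-Hochberg adjustment at 5%. Errors of fold changes are standard errors and those of means are SD. The number of arrays limits the precision. Replicates are separate mice. The labels give no replicate numbers, so mice are numbered here in the order of the samples within each group.

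The members, 5 pathway lists and 11 lists of cell markers were chosen with earlier results of these data known. Genes named were all members, Mmp8 and Xist, up to 3 called genes of each pathway list with the largest averaged fold change, and the nearest profile of each member. Phex, Dmp1, Ibsp, Tlr4 and Eif2s3y were named after their values were seen. Promoter letters came from RefSeq on GRCm38.p6, whereas the build of the array annotation is not given in the sources used here. The fitting procedure was tested on simulated data. Alternatives were the compared arrays alone, ordinary linear regression, intensity trend, array weights, no signal filter, every feature, array mean subtraction, quantile normalization, an FDR of 1% and removal of arrays.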

Additional observations from a re-analysis of the deposited data

How the results depend on the processing

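Omd was called lower in both genotypes under all 23 alternatives, with the highest adjusted p at 0.0366 in Mmp8-/- and 0.00931 in Mmp8+/+ mice, and Bgn was called higher in Mmp8+/+ mice under all 23. The 3 calls in Mmp8+/+ mice became 2 to 4 when 1 array was left out. The 3 calls in Mmp8-/- mice became 1 to 4 when 1 array was left out (1 without arthritic mouse 1 and 1 without control 1), and 1, Omd, under ordinary linear regression, array weights, quantile normalization of the tested features, an FDR of 1%, and without the 3 arrays that stood apart. With an intensity trend and robust moderation the Mmp8-/- calls were 4, Dcn, Omd, Prelp and Podn, of which 2 were among the 3, and Ogn had an adjusted p of 0.0565. Ogn lost its Mmp8-/- call in 13 of 23 alternatives, Podn in 9, and Lum its Mmp8+/+ call in 6. The 7 averaged calls became 5 to 7 when 1 array was left out, 4 under ordinary linear regression, 3 at an FDR of 1%, 4 without the 2 arrays with Xist signal, and 1 without these and the library labelled Mmp8-/- control 2, where 1 Mmp8-/- control is left and is assumed to vary like the other groups. The 2 genotype comparisons and the interaction gave 0 calls in each alternative.

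Signs changed in 39 cases, 32 of them when 1 array was left out, and 0 of these values were called. With array weights, the Mmp8-/- minus Mmp8+/+ difference of Dcn in arthritis was 0.044, and that of Aspn in controls was -0.049 (-0.0082 with array means subtracted and -0.016 with quantile normalization). Without the 3 arrays, Omd and Prelp differed by -0.0024 and -0.14 in controls, and the interaction of Prelp was 0.079. When 1 array was left out, log2 fold changes with arthritis were -0.013 to 0.21 for Bgn, -0.30 to 0.0085 for Fmod and -0.45 to 0.14 for Aspn in Mmp8-/- mice, -0.14 to 0.31 for Kera and -0.36 to 0.10 for Podn in Mmp8+/+ mice, and -0.16 to 0.14 for Aspn on average. Differences between arthritic genotypes were -0.20 to 0.14 for Dcn, -0.17 to 0.88 for Omd, -0.27 to 0.039 for Prelp, -0.58 to 0.020 for Aspn and -0.60 to 0.073 for Kera, and between control genotypes -0.26 to 0.15 for Ogn and -0.17 to 0.14 for Aspn. Interactions were -0.27 to 0.071 for Dcn, -0.26 to 0.79 for Omd and -0.58 to 0.016 for Aspn. The causes of these shifts were not tested. Averaging several rows of a gene changed nothing, since each member has 1 row. No paired analysis was made, because each array is of a separate mouse and the labels name no pairs. The low Omd signals of arthritic mice lie near 5.3, the minimum set for a feature's mean over all arrays and not a floor for single signals. No detection call was used, and RMA can flatten differences at low signal, so the Omd folds may be understated.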
